A study of Homo sapiens with 7 samples.

Results

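The genes described here encode subunits of the mitochondrial respiratory chain and of ATP synthase. They were chosen by name as protein-coding genes of the human genome (GRCh38) whose symbols start with NDUFA, NDUFB, NDUFC, NDUFS or NDUFV (complex I), UQCR (complex III), COX4 to COX8 (complex IV) or ATP5 (complex V), leaving out the NDUFAF assembly factors. The rule found 84 of the 20037 protein-coding genes placed on a nuclear chromosome, 38 in complex I, 9 in complex III, 17 in complex IV and 20 in complex V. Of the 84, 4 are readthrough or retrocopy-like genes (ATP5MF-PTCD1, NDUFC2-KCTD14, ATP5MGL and UQCRHL) that share coordinates or sequence with a parent gene.

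The study used chromatin immunoprecipitation and sequencing (ChIP-seq) to map ATF4 and MYC on DNA of DLD-1 cells, a line derived from a human colon adenocarcinoma and infected with a retrovirus that expresses MycER, a MYC protein held inactive until 4-hydroxytamoxifen is added. ATF4 was profiled in 2 libraries from cells with MycER switched on and in 2 libraries from control cells, and MYC was profiled in 2 libraries from cells with MycER switched on. Activated cells received 500 nM 4-hydroxytamoxifen and were collected after 8 hr, and control cells carried the same MycER construct and received vehicle. The samples hold no MYC library from control cells, so whether a MYC peak depends on activation cannot be told. The IgG sample was not analysed here, no group had the inducer without MycER, and the peaks do not separate MycER from the cells' own MYC. Each library has its own list of peaks, with strength given as a normalized tag count, that is, tags per 10 M tags of the library. The lists held 8636 and 22532 MYC peaks in replicates 1 and 2, 1270 and 2231 ATF4 peaks in activated cells, and 916 and 1579 ATF4 peaks in control cells. Depth worked out from the lists ranged from 21.04 to 50.3 M tags and was higher in replicate 2 of every group. A peak was assigned to a gene when its centre lay inside the gene or within 1 kb of it, and a peak of weak binding in all cells cannot be told apart from one of strong binding in some.

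Complex I takes electrons from NADH, complex III passes them to cytochrome c, complex IV hands them to oxygen, and complex V uses the proton gradient that results to make ATP. Some core subunits of each of these complexes are encoded by mitochondrial DNA, and all the genes described here are nuclear. MYC binds DNA with its partner MAX, preferentially at the E-box CACGTG and with lower affinity at variants such as CACGCG, and is known in other systems to occupy many genes of mitochondrial function. ATF4 carries out the integrated stress response, in which it drives genes of amino acid supply, and in many cells it responds to failing mitochondria.

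To show what lies under or beside the MYC peaks, 250 bases before the annotated start are given for 5 genes, each in the direction of the gene (RefSeq, GRCh38.p14), with CACGTG and CACGCG in capitals, the second read on either strand and so also written CGCGTG. ATP5MK (chr10:103396476-103396725, minus strand) had the strongest shared MYC peak of the set. NDUFA11 (chr19:5903791-5904040, minus strand) had an E-box almost under the centre of its peak, and UQCR11 (chr19:1605463-1605712, minus strand) and NDUFS7 (chr19:1383657-1383906, plus strand) had an E-box at the same distance from the start and a peak of replicate 2 over it. ATP5ME (chr4:674277-674526, minus strand) held both kinds of E-box and had no MYC peak in either list.
ATP5MK: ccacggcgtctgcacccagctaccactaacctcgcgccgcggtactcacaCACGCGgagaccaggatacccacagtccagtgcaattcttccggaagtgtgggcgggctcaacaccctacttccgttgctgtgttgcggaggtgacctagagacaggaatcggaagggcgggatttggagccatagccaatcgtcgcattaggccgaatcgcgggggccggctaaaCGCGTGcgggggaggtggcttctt
NDUFA11: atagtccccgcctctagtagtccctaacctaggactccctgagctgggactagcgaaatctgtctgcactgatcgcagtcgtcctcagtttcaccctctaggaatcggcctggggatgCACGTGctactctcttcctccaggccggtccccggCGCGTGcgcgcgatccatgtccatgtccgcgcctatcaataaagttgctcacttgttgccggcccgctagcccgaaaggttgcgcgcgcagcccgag
UQCR11: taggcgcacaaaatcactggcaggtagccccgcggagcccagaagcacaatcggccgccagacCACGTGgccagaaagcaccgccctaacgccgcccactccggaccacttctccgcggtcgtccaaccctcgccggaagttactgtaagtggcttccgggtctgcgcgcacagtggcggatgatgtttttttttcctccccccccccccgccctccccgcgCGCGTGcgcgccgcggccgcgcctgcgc
NDUFS7: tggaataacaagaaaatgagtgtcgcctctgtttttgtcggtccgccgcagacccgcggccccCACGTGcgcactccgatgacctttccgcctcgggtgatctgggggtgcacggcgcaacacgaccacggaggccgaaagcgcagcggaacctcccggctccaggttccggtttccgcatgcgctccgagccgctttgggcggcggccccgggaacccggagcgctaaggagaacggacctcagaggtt
ATP5ME: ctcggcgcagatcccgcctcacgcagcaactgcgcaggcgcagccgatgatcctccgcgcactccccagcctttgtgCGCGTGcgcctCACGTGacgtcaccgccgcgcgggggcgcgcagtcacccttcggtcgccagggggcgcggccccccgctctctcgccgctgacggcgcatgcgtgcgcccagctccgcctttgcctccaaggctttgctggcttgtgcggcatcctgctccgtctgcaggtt
For 2 further genes 30 bases around the E-box are enough, because the rest of the window was free of it: ATP5PB (chr1:111449229-111449258, plus strand) and NDUFA7 (chr19:8321478-8321507, minus strand).
ATP5PB: ggcagcaaacccCACGTGgtgcacctctga
NDUFA7: gcggagaggagtCACGTGcttcggggagag

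Overlapping MYC peaks of both libraries lay at some genes of complexes I, III and V and at no gene of complex IV. Overlapping peaks (by at least 1 bp) in both MYC libraries were found at 16 of the 84 subunit genes (19.0%, exact 95% binomial interval 11.3 to 29.1%), against 18.9% of all protein-coding genes, so the share did not stand apart from the background. In replicate 1, 17 subunit genes (20.2%) had a peak, against 22.4% of all genes. In replicate 2, 52 subunit genes (61.9%, interval 50.7 to 72.3%) had one, against 48.9% of all genes. Subunit genes are short, with a median span of 8768 bp, against 24115 bp for all genes, and a window that includes the gene body gives longer genes more room for a peak. Without the 4 readthrough or retrocopy-like genes the count in both libraries was 16 of 80 (20.0%). The intervals cover counting error only, and genes are not replicates of a condition.

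By complex, peaks of both libraries lay at 7 of 38 genes of complex I (18.4%), 3 of 9 of complex III (33.3%), 0 of 17 of complex IV and 6 of 20 of complex V (30.0%). A count of 0 in 17 genes allows a share of up to 17.6% by the limit of 3 counts and up to 19.5% by the exact 95% interval, on either side of the 18.9% of all genes, and the difference of complex IV from all genes was not tested. In the deeper replicate 2 alone the counts were 26 of 38 (68.4%), 6 of 9 (66.7%), 6 of 17 (35.3%) and 14 of 20 (70.0%) in the same order of complexes. Within complex I, 3 of the 7 core subunits, which carry the electron-transfer centres, had peaks in both libraries (42.9%, interval 9.90 to 81.6%). So did 4 of the 30 accessory subunits (13.3%, interval 3.76 to 30.7%). Both intervals cover the 18.9% of all genes, and in replicate 2 alone the shares were 71.4% and 66.7%. Within ATP synthase, peaks of both libraries lay at 2 of the 3 genes for the proton-driven c ring, 2 of the 5 membrane accessory subunits, 1 of the 4 genes of the peripheral stalk and 1 of the 5 genes of the F1 head and central stalk. The gene for the inhibitor, ATP5IF1, had none. The 6 tissue-restricted isoforms of complex IV (COX4I2, COX6A2, COX6B2, COX7A1, COX7B2 and COX8C), used in muscle, lung, testis and other specialised tissues, had no MYC peak in either list, and 6 of the other 11 complex IV genes had one in replicate 2.

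**Figure D1:**
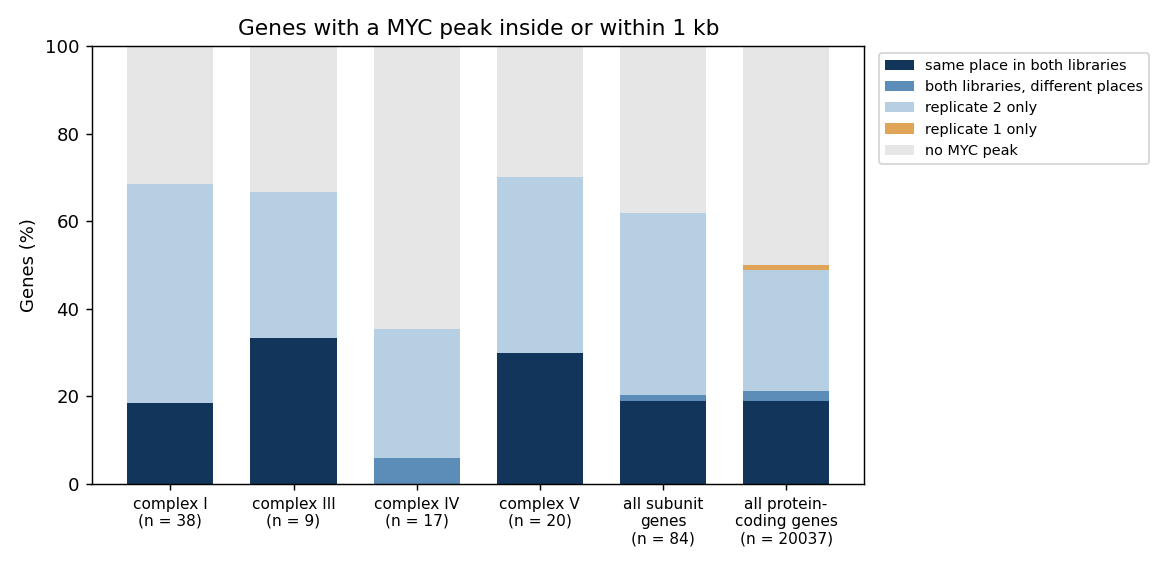
Share of genes (percent, vertical axis) with a MYC peak in both libraries at the same place, in both at different places, in 1 library only, or in neither, for each complex, all 84 subunit genes and all 20037 protein-coding genes. The subunit genes and all genes had nearly the same share in both libraries (19.0% and 18.9%), complex IV had 0 of 17 genes with overlapping peaks, and the replicate 2 class was the widest among the subunit genes with a peak.

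The strongest shared peaks belonged to ATP synthase. ATP5MK, a small membrane subunit that helps ATP synthase pair into dimers, had a MYC peak of 26.6 normalized tags in replicate 1 and 31.5 in replicate 2 (29.05 ± 3.465, mean and SD, n = 2). It ranked 45th of 8636 and 47th of 22532 peaks, with 56 tags under it in replicate 1 and authors' folds over background of 115.24 and 68.26. This peak (chr10:103396621-103396797; coordinates are those of replicate 2 throughout for MYC) was centred at -229 and -234 bp from the ATP5MK start, upstream of the gene, and lay 78 and 83 bp from the start of the divergent neighbour PDCD11, a ribosomal RNA processing factor. The CACGCG element at -200 in the sequence above lay 34 bp from the mean centre of that peak. ATP5F1A, the alpha subunit of the catalytic F1 head, had 15.7 tags in replicate 1 and 23.7 in replicate 2, with folds of 34.98 and 102.82. Its peak (chr18:46098444-46098620) lay at -284 and -236 bp from an annotated start inside the gene. The next annotated protein-coding start, of HAUS1, was 5805 and 5853 bp away. ATP5MC2, 1 of the 3 genes for the c ring, had 10.5 and 20.4 tags at +260 and +164 bp (chr12:53675831-53676007). All 3 peaks were stronger in replicate 2, and all 3 lay above the median of their list.

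The other shared peaks of ATP synthase were weaker. ATP5PB, the b subunit of the peripheral stalk, had 4.75 and 7.18 tags in replicates 1 and 2 (chr1:111449143-111449319), with folds of 41.16 and 62.21. Its E-box lay 2 bp from the mean peak centre, and the same peak was 4 and 25 bp from the start of WDR77, a methylosome subunit transcribed the other way. ATP5MC3, also a c-ring gene, had 4.75 and 4.79 tags (chr2:175180888-175181064), centred 668 and 734 bp from the nearer end of the gene and near equal in the 2 libraries. ATP5MG, the g subunit of the membrane part, had 4.75 and 3.99 tags (chr11:118401309-118401485) at -314 and -209 bp, and replicate 2 held a further, slightly stronger peak of 4.79 tags at +279 bp. Except for replicate 2 of ATP5PB, these 3 genes had peaks below the median of their list, 5.70 tags in replicate 1 and 4.99 in replicate 2.

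In complex I, 7 genes had a shared peak, and at most of them replicate 2 had the higher tag count. NDUFC1, a small accessory subunit, had 8.08 tags in replicate 1 and 15.0 in replicate 2 (chr4:139301490-139301666), 19 and 73 bp from the start of the neighbour NAA15, an N-terminal acetyltransferase subunit. NDUFA7, an accessory subunit, had 6.65 and 14.6 tags, but that peak (chr19:8307876-8308052) lay beyond the far end of the gene, 13417 and 13411 bp from its start and 400 and 394 bp from that of CD320. At the NDUFA7 start itself, replicate 2 alone had a peak of 7.78 tags at -188 bp, 67 bp from the start of RPS28, a ribosomal protein gene. NDUFV3, a subunit of the NADH-binding arm, had 4.28 and 11.2 tags (chr21:42892770-42892946) at -541 and -451 bp. NDUFS1, the largest core subunit and a carrier of iron-sulphur clusters, had 4.75 and 10.2 tags (chr2:206159868-206160044), 71 and 61 bp from the start of the translation elongation factor gene EEF1B2. At NDUFC1, NDUFA7 and NDUFS1 a neighbour's start was therefore nearer to the peak than the subunit gene's own.

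NDUFA11, an accessory subunit of the membrane arm, had 4.28 tags in replicate 1 and 9.78 in replicate 2 (chr19:5903847-5904023) at -149 and -145 bp. Its E-box at -132 bp lay 18 bp from the mean peak centre, with no nearer annotated start of another gene. The core subunits NDUFS8 and NDUFS3 had the weaker peaks among these 7 genes, in the mean of both libraries. NDUFS8, which carries iron-sulphur clusters, had 5.23 and 6.59 tags (chr11:68030176-68030352) at -386 and -417 bp. NDUFS3, a core subunit of the arm in the matrix, had 5.23 and 4.39 tags (chr11:47578894-47579070) at -108 and -92 bp, with folds over background of only 2.83 and 2.11, and the start of KBTBD4 was 4 and 12 bp from the centre.

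In complex III the core protein UQCRC2 had 9.03 tags in replicate 1 and 8.38 in replicate 2 (chr16:21952928-21953104), at -350 and -345 bp. UQCRQ, a ubiquinone-binding subunit, had 8.08 and 9.18 tags (chr5:132866872-132867048) at +316 and +318 bp, and the start of GDF9 was 307 and 309 bp away. UQCR11, a small subunit, had 6.18 and 8.18 tags (chr19:1604862-1605038) at +544 and +512 bp, with folds of 53.5 and 35.42. Replicate 2 had a further UQCR11 peak of 6.59 tags at -201 bp, over the E-box at -187 bp. The 3 complex III genes were thus close in strength to each other and between libraries.

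**Figure D2:**
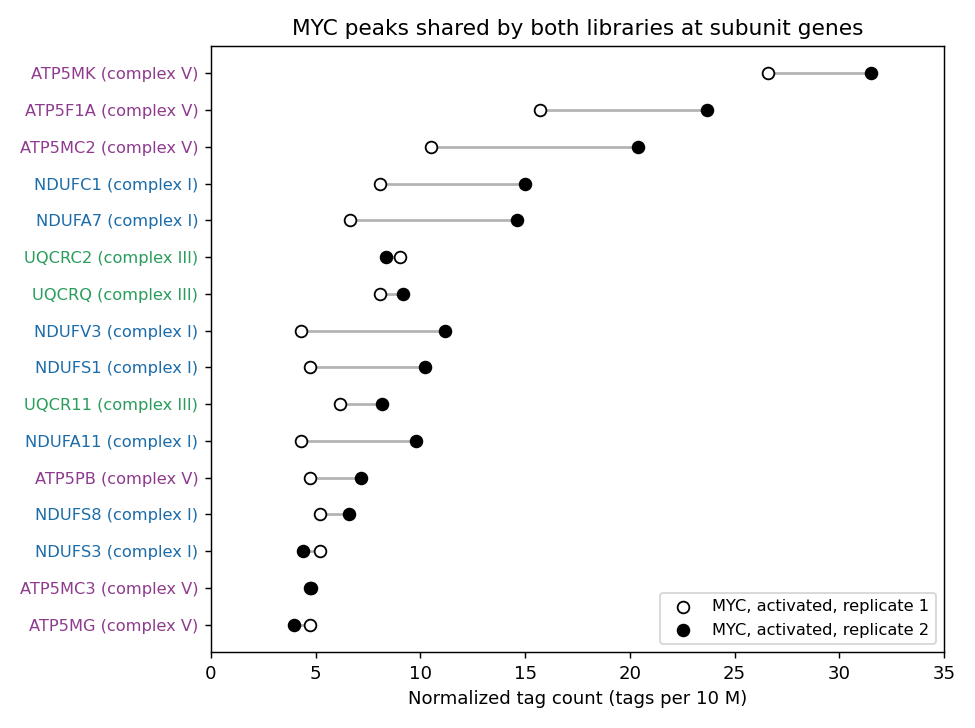
Normalized MYC tag counts (tags per 10 M, horizontal axis) of the peak shared by both libraries at each of the 16 subunit genes, with open circles for replicate 1 and filled circles for replicate 2 and the gene name coloured by complex. ATP5MK stood highest at 26.6 and 31.5 tags and replicate 2 was above replicate 1 at 13 of the 16 genes.

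Across the 16 genes, replicate 2 exceeded replicate 1 at 13, with a median ratio of 1.42, and it did so at 3324 of the 3780 genes with shared peaks in the whole genome, with a median ratio of 1.47. The median tag count of the shared peaks was 5.71 in replicate 1 and 9.48 in replicate 2 at the subunit genes, against 6.18 and 9.98 over all genes with such peaks. The subunit genes' peaks were thus of ordinary strength for shared MYC peaks, with ATP5MK and ATP5F1A as the high end of the range of 4.28 to 26.6 tags in replicate 1 and 3.99 to 31.5 in replicate 2. The tag counts of the 2 libraries gave Pearson's r = 0.893 and Spearman's rho = 0.558 over the 16 genes, a description over points from the same 2 libraries.

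A further 35 subunit genes (41.7%) had a MYC peak in replicate 2 alone, against 27.7% of all genes. None had one in replicate 1 alone, against 1.19% of all genes, a share near the background. COX7A2, an accessory subunit of complex IV, had a peak in each library but at different places, with 4.75 tags at -162 bp in replicate 1 and 3.19 tags at +193 bp in replicate 2. The strongest peak at each of the 35 ranged from 3.19 to 7.98 tags with a median of 4.59, and 8 of them were under the lowest tag count in the list of replicate 1, 3.8. They included ATP5MC1, the third c-ring gene, at 7.98 tags, so all 3 c-ring genes had a peak in replicate 2. They also included ATP5F1B, the catalytic beta subunit, at 5.59 tags. In complex I the stronger ones were NDUFB10 at 6.99 tags, NDUFS6 at 6.59, NDUFB9 at 6.59 and NDUFA9 at 6.39. In complex IV they were COX6C at 6.79 tags, COX7C at 6.79, COX5B at 5.39, COX7A2L at 5.39 and COX5A at 3.39. In complex III they were UQCRH at 4.79 tags, UQCR10 at 3.99 and UQCRC1 at 3.39.

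The remaining replicate 2 genes had 3.19 to 5.99 tags. They were NDUFA5, NDUFA8, NDUFA10, NDUFA12, NDUFA13, NDUFB2, NDUFB5, NDUFB6, NDUFB7, NDUFB8, NDUFC2, NDUFC2-KCTD14, NDUFS5, NDUFS7 and NDUFV2 of complex I, and ATP5F1E, ATP5MF, ATP5MF-PTCD1, ATP5MJ, ATP5PF and ATP5PO of complex V. ATP5MF and ATP5MF-PTCD1 were assigned the same peak of 5.99 tags. NDUFS7, the core subunit that carries the last iron-sulphur cluster before ubiquinone, had 4.39 tags at -183 bp, next to its E-box at -187 bp.

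Whether a replicate 2 peak was also in replicate 1 followed its strength. Among subunit genes whose strongest replicate 2 peak had under 4 tags, 0 of 11 had a shared peak, against 3.0% of all genes in that range. From 4 to 6 tags it was 3 of 21 (14.3%, against 16.3% of all genes), from 6 to 8 tags 2 of 9 (22.2%, against 44.1%), from 8 to 10 tags 4 of 4 (against 67.8%), and from 10 tags 7 of 7 (against 90.4%). All of the 17 subunit genes with a peak in replicate 1 except COX7A2 were shared, so the shorter list of replicate 1 bounded the count of genes found in both.

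The other 32 subunit genes (38.1%) had no MYC peak in either list, against 50.0% of all genes. In complex I they included NDUFA1, NDUFA2, NDUFA3, NDUFA6, NDUFAB1, NDUFB1, NDUFB3, NDUFB4, NDUFB11, NDUFS4 and NDUFV1, the core subunit that binds NADH. In complex III they were UQCRB, UQCRHL and UQCRFS1, the Rieske iron-sulphur protein. In complex IV they were COX4I1, COX6A1, COX6B1, COX7B, COX8A and the 6 tissue-restricted isoforms. In complex V they were ATP5F1C, ATP5F1D, ATP5IF1, ATP5ME, ATP5MGL and ATP5PD. NDUFAB1 also serves as the mitochondrial acyl carrier protein.

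At subunit genes the shared MYC peaks lay close to gene starts. An annotated start was matched for 68 of the 84 genes, 15 of them with a shared peak. At 14 of the 15 (93.3%) the peak centre was within 1 kb of a start of the gene, 11 upstream and 3 downstream, at a median distance of 317 bp. The share was 53.0% of the 3072 genes of the genome with a shared peak and a start. There 828 peaks were upstream and 800 downstream, and the median distance was 850 bp. Peaks were assigned by gene span, and the shorter subunit genes (median 8768 bp, against 24115 bp) leave less room for an assigned peak far from a start. The part of gene length in this difference was not tested. At 8 of the 15 genes the subunit gene's own start was the nearest annotated protein-coding start, namely ATP5F1A, ATP5MC2, ATP5MG, NDUFA11, NDUFS8, NDUFV3, UQCR11 and UQCRC2. At the other 7 another gene's start was nearer, PDCD11 for ATP5MK, WDR77 for ATP5PB, CD320 for NDUFA7, NAA15 for NDUFC1, EEF1B2 for NDUFS1, KBTBD4 for NDUFS3 and GDF9 for UQCRQ. Which gene of such a pair MYC acts on was not tested. Starts were annotated for 15843 of the 20037 genes, so a nearer start outside that set would not have been seen. At NDUFV3 the WDR4 gene came within 1 kb of the peak, though its annotated start was 13229 and 13319 bp away.

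**Figure D3:**
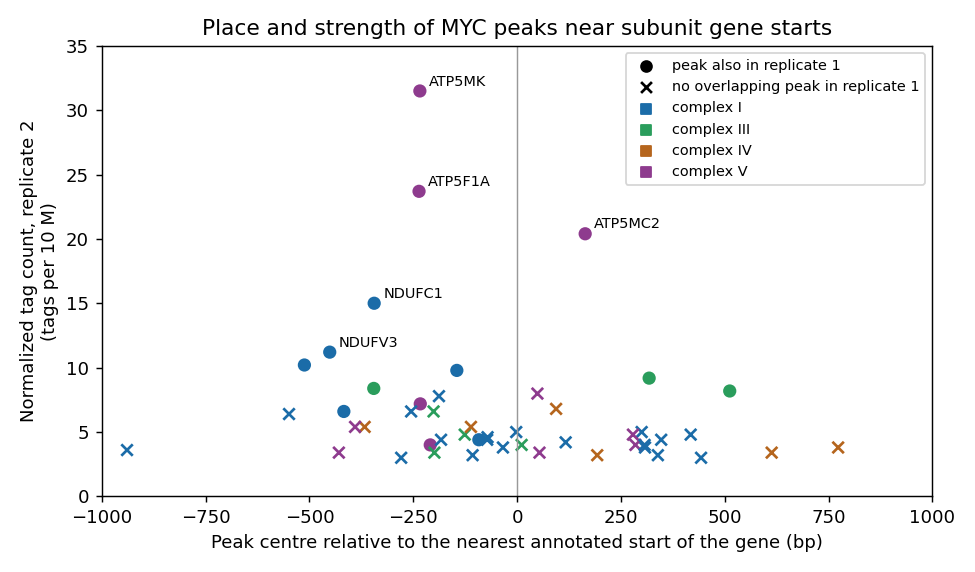
Normalized tag count of replicate 2 MYC peaks (tags per 10 M, vertical axis) against the distance of the peak centre from the nearest annotated start of the subunit gene (bp, horizontal axis, upstream negative), within 1 kb and coloured by complex. Circles are the 14 peaks also found in replicate 1, of which 11 were upstream, and crosses are the 35 found in replicate 2 only, of which 18 were upstream.

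Counted at gene starts, in a window that does not grow with gene length, the share of subunit genes was above that of all genes. Both MYC libraries had an overlapping peak within 1 kb of a start at 14 of the 68 subunit genes (20.6%, exact 95% interval 11.7 to 32.1%), against 10.8% of 15843 genes with an annotated start. Only 8 of these 14 genes had their own start as the nearest annotated one. At ATP5MK, ATP5PB, NDUFC1, NDUFS1, NDUFS3 and UQCRQ a neighbour's start was nearer to the peak. The share with the own start nearest was not worked out for all genes. By complex, such a peak was found at 6 of 33 genes in complex I (18.2%, interval 6.98 to 35.5%) and 3 of 7 in complex III (42.9%, 9.90 to 81.6%). It was found at 0 of 14 in complex IV (interval up to 23.2%) and 5 of 14 in complex V (35.7%, 12.8 to 64.9%). The intervals of complexes I, III and IV cover the 10.8% of all genes. This window was chosen after the values were seen, and no test against the background was made. Several other lists of mitochondrial genes had higher shares still. Assembly factors of the respiratory complexes had 17 of 47 (36.2%), genes for the upkeep and transcription of mitochondrial DNA 5 of 9 (55.6%), mitochondrial ribosomal proteins 22 of 69 (31.9%) and enzymes of the tricarboxylic acid cycle 3 of 11 (27.3%). The list of cytosolic ribosomal proteins, long known as MYC targets, had 45 of 82 (54.9%), and proteasome subunits had 8 of 35 (22.9%). The ribosomal list was chosen by symbol (RPL or RPS and a digit, RPSA and the RPLP genes). That rule also takes in kinase genes such as RPS6KA2 and readthrough genes such as RPS10-NUDT3. The complex II subunits, which link the cycle to the respiratory chain, had 0 of 3 (interval up to 70.8%, which covers the 10.8% of all genes). Cytochrome c with the phosphate and adenine nucleotide carriers had 0 of 5 (interval up to 52.2%, which also covers 10.8%). Cytochrome c1 (CYC1) had no matched start and was not in that count.

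**Figure D4:**
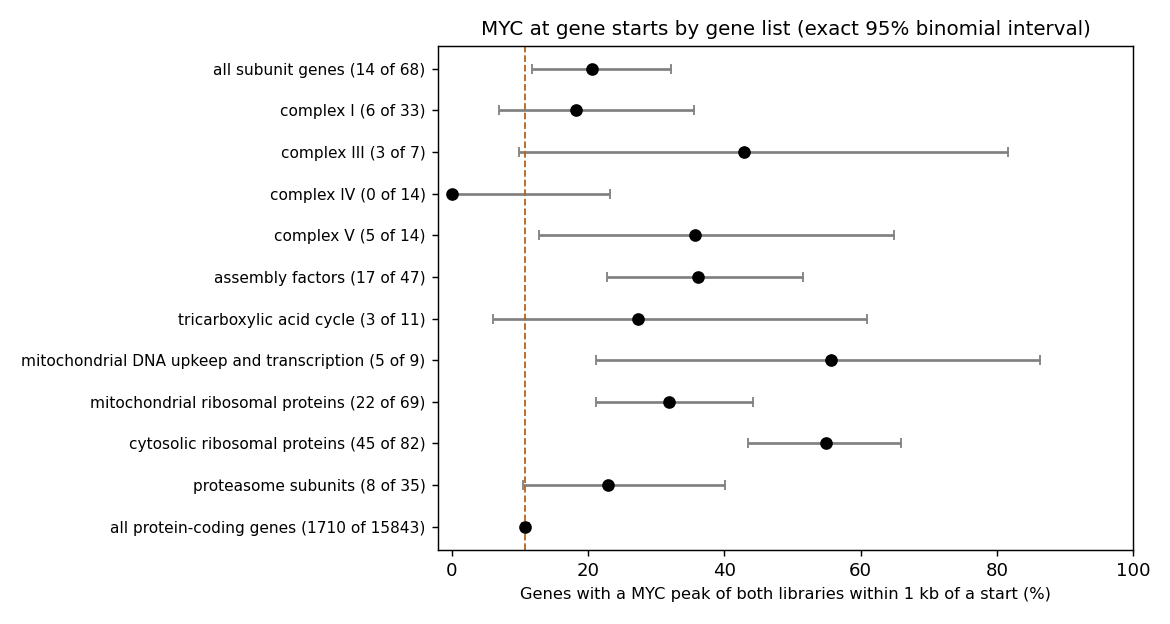
Percentage of genes with a MYC peak of both libraries within 1 kb of an annotated start (horizontal axis) for the subunit genes, each complex and comparison lists, with exact 95% binomial intervals as bars and the value for all protein-coding genes, 10.8%, as a dashed line. The subunit genes stood at 20.6%, complex IV at 0, and the list of cytosolic ribosomal proteins, chosen by symbol, at 54.9%.

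Within the wider window, peaks of both libraries lay at 20 of 53 assembly factors (37.7%), against 18.9% of all protein-coding genes. UQCC4, a complex III assembly factor, had 7.61 tags in replicate 1 and 21.2 in replicate 2. The complex IV assembly factors COX20 and COA7 had 13.8 and 18.4 tags and 10.5 and 19.8 tags, whereas the complex IV assembly factors COX14, COX17, COX19, COA5 and SURF1 had no MYC peak in either list. BCS1L, which inserts the Rieske protein into complex III, had 6.65 and 16.8 tags. Genes for mitochondrial DNA upkeep and transcription had shared peaks at 6 of 10 (60.0%). They included the packaging and transcription factor TFAM with 5.7 and 12.6 tags and the helicase TWNK with 7.13 and 13.4 tags. CYC1, the cytochrome c1 of complex III, whose symbol falls outside the naming rule, had 9.51 and 12.6 tags.

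The window from 250 bases before to 50 after each start was searched on both strands for 8 short elements. CACGTG was found at 7 of the 68 subunit genes (10.3%, against 10.9% of 15843 genes), ATP5MC1, ATP5ME, ATP5PB, NDUFA7, NDUFA11, NDUFS7 and UQCR11. CACGCG was found at 17 (25%, against 18.1%). Among the 15 subunit genes with a shared MYC peak and a matched start, 4 held CACGTG (26.7%), against 16.2% of the 3072 such genes of the genome. The element was not always at the shared peak. It lay 2 bp from the mean peak centre at ATP5PB and 18 bp at NDUFA11, but 712 bp away at UQCR11 and 13532 bp away at NDUFA7. At UQCR11 and NDUFA7 a further peak, in replicate 2 alone, lay over the element, with 6.59 and 7.78 tags. Among the 27 subunit genes with a peak in replicate 2 only, 2 held CACGTG (7.41%). Among the 25 with no peak, 1 held it (4.00%), ATP5ME. The ATP5ME window also held CACGCG, and its CACGTG overlaps a TGACGTCA element, which is bound by the CREB and ATF family.

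Elements of NRF1, ETS factors and YY1, known activators of respiratory genes, had higher shares in the subunit genes' windows than in those of all genes, a difference that was not tested. The element of NRF1 was found at 15 subunit genes (22.1%, against 9.67%), and at UQCR11, NDUFA3, NDUFA11, NDUFA12, ATP5ME and ATP5PO it overlapped a CACGCG element. The ETS core CCGGAAG, bound by GABP among others, was found at 19 (27.9%, against 16.5%), and AAGATGGCG, bound by YY1, at 8 (11.8%, against 3.21%). The ETS core was found at 7 of the 15 genes with a shared MYC peak (46.7%), against 22.2% of such genes of the genome. The nearest copy lay 1 bp from the mean peak centre at NDUFS3 and 72 bp at ATP5MK. At the rest it lay 215 to 622 bp away. TCAAGGTCA, bound by the estrogen-related receptors, was found at 0, against 0.335% of all genes. TGATGNAA, part of the composite element that ATF4 binds with a C/EBP partner, was found at NDUFA5 and NDUFS6 only (2.94%, against 3.60%), and TGACGTCA at 4 genes (5.88%, against 3.0%). A match of letters is a description and does not show that a factor is bound.

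For ATF4, which the study compared between MYC-activated and control cells, almost no subunit gene had a peak in either condition. In activated cells 1 of the 84 genes (1.19%) had an ATF4 peak in replicate 1, against 2.90% of all genes, and 1 in replicate 2, against 5.43% of all genes. In control cells 0 had one in replicate 1, against 2.01% of all genes, and 1 in replicate 2, against 3.77% of all genes. The mean was 1.0 ± 0 genes in activated cells and 0.5 ± 0.707 in control cells (SD, n = 2 each), a difference of 0.5 genes that an exact two-sided permutation test over libraries did not separate from none (p = 1.00). With 2 libraries a group that test cannot go below 0.33. The window includes the gene body, and subunit genes are shorter (median 8768 bp, against 24115 bp), which leaves less room for an ATF4 peak. The part of gene length in the ATF4 counts was not tested.

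The 3 genes were different ones, and none had its ATF4 peak at a gene end. COX7A2L, which takes part in joining complexes III and IV into supercomplexes, had a peak of 5.21 tags (fold 5.64) in activated replicate 1 (chr2:42343853-42344023), inside the gene and 17279 bp from its start. The readthrough gene NDUFC2-KCTD14 had 3.62 tags (fold 3.13) in activated replicate 2 (chr11:78023945-78024149), 55815 bp from its nearest start. NDUFV1, the NADH-binding subunit, had 4.17 tags (fold 9.04) in control replicate 2 (chr11:67609280-67609492), 2450 bp from its start. None of these peaks was found in another ATF4 library at the same gene. Within 1 kb of a gene end 0 of the 84 genes had an ATF4 peak in any of the 4 lists. The share of all genes was 0.319 to 1.05% by list, so this count was near the background.

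No subunit gene had overlapping ATF4 peaks in both activated libraries, against 0.928% of all genes, or in both control libraries, against 0.349% of all genes. None had both a MYC and an ATF4 peak in both activated libraries, against 0.494% of all genes. With such low shares over all genes, these counts of 0 were near the background. The comparison of ATF4 strength between activated and control cells by limma covered 105 regions with a peak in all 4 libraries, of which 39 (37.1%) were higher in activated cells at a Benjamini-Hochberg adjusted p under 0.05, and none of the 105 lay at a subunit gene. After centring each library on its median, 0 were called higher and 9 lower, and leaving out any 1 of the 4 libraries left 0 called by limma, with 24 to 47 higher at an unadjusted p under 0.05.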

How the data were processed

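Binding of ATF4 and MYC was measured by ChIP-seq in DLD-1 cells. The tools named are Bowtie 0.12.9 and HOMER on hg38, per the submitters' processing notes; their settings and the background library are not given in the sources used here. Peaks were called per library, per the file headers. The deposited normalized tag count is a signal in tags per 10 M tags, the deposited total tag count of replicate 1 is in whole tags, and the focus ratio is the deposited fraction of tags on the expected side of a peak centre. The deposited fold over background is a ratio made by the authors, and the deposited findPeaks score and p-values were not used to choose peaks. Strength, fold and rank are the authors' values and describe peaks within a list.

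From these lists, peaks were assigned to genes of the RefSeq GRCh38.p14 gene table (centre inside or within 1 kb), and peaks overlapping by 1 bp counted as shared; genes on mitochondrial DNA or with no placed chromosome were left out. Groups and replicate numbers come from the sample titles, and the labels do not say whether replicates were separate cultures, so p-values measure only the spread between these libraries. Tag counts at ATF4 regions were compared on the log2(normalized tag count + 1) scale with limma 3.58.1 in R 4.3.3 and a Benjamini-Hochberg threshold of 0.05, tested on simulated data. Counts per library used an exact permutation test, and shares have exact (Clopper-Pearson) 95% intervals, which cover counting error only. Values were given for the 25 members with the highest mean MYC tags (16 qualified), every member with an ATF4 peak and the strongest member of each complex; others were named and counted, except a few that are counted but not reported by name here, and genes singled out beyond this were picked with their values known. The members and gene lists were chosen with earlier results of these data known. Alternatives changed the fold limit, window, overlap, lowest tag count, pseudocount, centring, trend and libraries.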

Additional observations from a re-analysis of the deposited data

Results flagged for a closer look

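Outside the nuclear genes, the list of MYC replicate 1 from activated cells held a peak on mitochondrial DNA, at positions 89 to 237, with 108.9 normalized tags and a fold over background of 1.64. No other of the 6 lists held a mitochondrial peak, so this signal in data outside the comparisons was seen in 1 library. The peak lies in the control region of the genome that encodes the remaining respiratory chain subunits, and its fold is low beside the median of 9.26 in that list.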

How the results depend on the processing

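The count of 16 subunit genes with a MYC peak in both libraries ranged from 17 to 52 when 1 library was left out (17 with replicate 1 alone, 52 with replicate 2 alone). It was 8 when only genes whose own start was the nearest annotated one were kept, an alternative chosen after seeing the data. Under the other 7 alternatives it was 13 to 18. The median of 7.61 MYC tags at these genes was 5.19 to 5.23 with 1 library alone, over all genes with a peak there, and 7.18 to 7.74 otherwise. With 1 library alone, the tags of 7 of the 16 genes (NDUFS1, NDUFC1, ATP5MC2, ATP5F1A, NDUFA11, NDUFA7 and NDUFV3) moved from their mean by more than 2.59 tags, the median SD between replicates, and under the other alternatives that kept a gene its tags moved by less. The background moved more than the subunit genes with the window: within 1 kb of a gene end 13 subunit genes (15.5%) had a shared peak, against 10.0% of all genes. The count of 0 genes with both factors was 0 to 1 when 1 replicate was left out (NDUFC2-KCTD14 from replicate 2). The ATF4 difference of 0.5 genes was 0 with a fold of at least 4 or within 1 kb of a gene end, and 0 to 1 within 1 replicate number. The 39 ATF4 regions that limma called higher became 9 after centring each library on its median, all 9 lower in activated cells and 0 higher, as the median log2 difference moved to -0.11, against 0.54 without centring. By limma, 0 regions were called with the replicate block (37 higher at an unadjusted p under 0.05, smallest adjusted p 0.115) or without any of the 4 libraries, where the unadjusted counts were 24 to 47 higher and the smallest adjusted p ranged from 0.0623 to 0.164; the cause was not tested. Same-numbered ATF4 libraries had deviations correlated at 0.0976 over the 105 regions, and the replicate numbers were not taken as pairing the samples. A correlation cannot show a shift common to all regions, so it does not decide whether same-numbered libraries are paired. The MYC count is bounded by the shorter list of replicate 1, and the part of depth in that was not tested.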

Other observations

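Enzymes of the tricarboxylic acid cycle, which feed the respiratory chain, had MYC peaks of both libraries inside or within 1 kb of 4 of 13 genes (30.8%), against 18.9% of all protein-coding genes. SUCLG2, a beta subunit of succinyl-CoA ligase, had 10.5 tags in replicate 1 and 16.0 in replicate 2. SUCLA2, the gene for the alternative beta subunit, had 7.61 and 11.2 tags, and citrate synthase (CS) had 5.23 and 7.78 tags. Malate dehydrogenase (MDH2) had 9.58 tags in replicate 2 and no peak in replicate 1.

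Among 8 genes listed as regulators of respiratory genes, 4 had shared MYC peaks (50.0%, interval 15.7 to 84.3%), against 18.9% of all protein-coding genes. These genes are long, with a median span of 61727 bp, against 24115 bp for all genes, which leaves more room for a peak. Within 1 kb of an annotated start the count was 3 of 7 (42.9%, interval 9.90 to 81.6%), against 10.8% of all genes with a start. The difference was not tested. PPRC1, a coactivator related to PGC-1, had 11.4 and 18.4 tags in replicates 1 and 2, and GABPB1, a subunit of the ETS factor GABP, had 9.51 and 18.0 tags. ESRRA, which encodes an estrogen-related receptor, had 5.23 and 11.8 tags, and PPARGC1B, a coactivator of the PGC-1 family, had 6.18 and 10.8 tags. Peaks at marker genes do not measure expression. The intestinal epithelium list had shared MYC peaks at 4 of 10 genes (CDH1, CDX2, KRT8 and LGR5, interval 12.2 to 73.8%). The list for blood, fibroblasts, endothelium, neurons and muscle had them at 3 of 17 (PDGFRB, PECAM1 and RBFOX3, interval 3.80 to 43.4%). Both intervals cover the 18.9% of all protein-coding genes. Within 1 kb of an annotated start the counts were 0 of 4 and 0 of 8 (intervals up to 60.2% and 36.9%). These intervals also cover the 10.8% of all genes with a start. The difference between the marker lists was not tested.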
